A study of Mus musculus with 6 samples.

Results

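The 36 genes described here are mouse genes known to be imprinted, that is, transcribed mainly or only from the copy inherited from 1 parent. They were chosen by name, with earlier results of these data known. Each of the 36 names was found once among the 26437 genes of the table. RNA-seq was carried out on the frontal part of the head of mouse embryos at E10, with both optic vesicles and the frontonasal region, which the labels call embryonic craniofacial tissue and eye. Wild-type (WT) embryos were compared with embryos homozygous for a null allele of *Rdh10* (*Rdh10* KO), which came from timed matings of heterozygous parents. The background was mixed, from the outbred Black Swiss stock and from C57BL/6. Each group had 3 libraries and each library was made from the pooled tissue of 3 embryos, so that 9 embryos stood behind each group and no value belongs to 1 embryo. Reads assigned to genes numbered 19089872, 17626842 and 20808237 in WT replicates 1 to 3 and 27101025, 18511484 and 16392777 in *Rdh10* KO replicates 1 to 3. Values are given as normalized counts, which are reads divided by 1 size factor per library, so that 1 read is worth 0.716 to 1.18 normalized counts. All 36 genes had a mean above 0.5 normalized counts over the 6 libraries and were tested among 22921 genes. Fold changes are on the scale of log2(normalized count + 0.1), where the added 0.1 sets the size of a change from libraries at 0, and p-values come from limma and were adjusted over all genes tested by the Benjamini-Hochberg method. In such bulk tissue, fewer cells of a type and less RNA per cell cannot be told apart.

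Imprinted genes lie in clusters, each governed by a control region that is methylated on the maternal or the paternal chromosome. Methylation on 1 copy decides which genes of the cluster are transcribed, often through a long non-coding RNA that silences its neighbours or through an insulator that blocks their enhancer. Many of the protein products act on embryonic growth: *Igf2* is a growth factor of the embryo, whereas *Igf2r*, *Grb10*, *Cdkn1c* and *Phlda2* restrain growth. RDH10 makes retinaldehyde, the precursor of retinoic acid, which the optic vesicle and the tissue around it need for formation of the optic cup. The reads were not assigned to parental alleles. The expressed allele named for each gene is textbook knowledge of mouse imprinting, not a measurement made here. Such expression can hold in certain tissues only, and whether it holds in the tissue used here was not measured for any gene.

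*Rdh10* itself was read first, as a check of the labels. It was counted at 399, 342 and 381 in WT replicates 1 to 3 and 183, 142 and 181 in *Rdh10* KO replicates 1 to 3. All 3 *Rdh10* KO libraries were below all 3 WT libraries (log2 fold change of -1.16 ± 0.13 (SE), limma adjusted p = 7.35e-05, exact two-sided permutation p = 0.1, the smallest that 3 libraries against 3 can give). Which exons the null allele lacks is not given in the sources used here, so the reads that remained cannot be assigned to a functional transcript.

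Among the 36 imprinted genes, 16 were higher and 3 were lower in *Rdh10* KO at an adjusted p under 0.05. Over all genes tested, 10.3% were higher and 9.12% lower, against 44.4% and 8.33% of these 36 genes. The excess over the background was on the higher side. Since the 36 were chosen with earlier results of these data known, it describes them and not imprinted genes at large. In a second list of imprinted genes, read further below, 13.5% were higher and 18.9% lower. The shares of all genes tested are also the ones to set beside the counts of each list below. Most of the imprinted genes had many reads, which makes a small difference easier to call. Among genes with a mean above 100 normalized counts, 18.2% were higher and 17.1% lower, and of the 32 imprinted genes above that level 14 were higher and 3 lower. The differences were mostly small. With a log2 cut-off of 0.85 added, 4 were higher (*Igf2r*, *Zim1*, *Phlda2* and *Ascl2*) and 0 lower, beside 2.41% and 0.886% of all genes. The higher count fell to 2 by limma without its trend and also to 2 without WT replicate 1. None of the 36 genes was lower past this cut-off by limma without its trend, by edgeR's 2 tests or by DESeq2 either. At an unadjusted limma p under 0.05 with the cut-off the count was also 0. In 17 of the 36 every *Rdh10* KO library was above every WT library, and in 3 every *Rdh10* KO library was below, where 17.6% and 17% of all genes did so. Above 100 normalized counts these shares were 25.9% and 27.2% of genes, and 15 and 3 of the imprinted genes.

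The 36 genes together took 1.14, 1.14 and 1.1% of the reads on genes in WT replicates 1 to 3 and 1.31, 1.38 and 1.43% in *Rdh10* KO replicates 1 to 3. The median log2 fold change over the 36 was 0.30, beside 0.0036 over all genes tested. EdgeR's 2 tests and DESeq2 kept all 19 calls. Limma without its trend of variance on expression level called 4 imprinted genes higher (*Igf2r*, *Peg3*, *Usp29* and *Zim1*) and 0 lower, while its count over all genes fell as well, to 448 higher and 197 lower. *Igf2*, *Peg10*, *Grb10* and *Cd81* lost their call under this setting alone, with adjusted p of 0.0549, 0.0618, 0.0572 and 0.058, and passed in the other 18 alternatives. Of 45 genes outside the 36 that were called and followed through the alternatives, 33 lost their call under the same setting, which is not repeated below. Leaving out WT replicate 1, 2 or 3 gave 8, 11 and 14 imprinted genes higher and 0, 0 and 2 lower, and leaving out *Rdh10* KO replicate 1, 2 or 3 gave 18, 14 and 15 higher and 2, 3 and 1 lower.

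**Figure D1:**
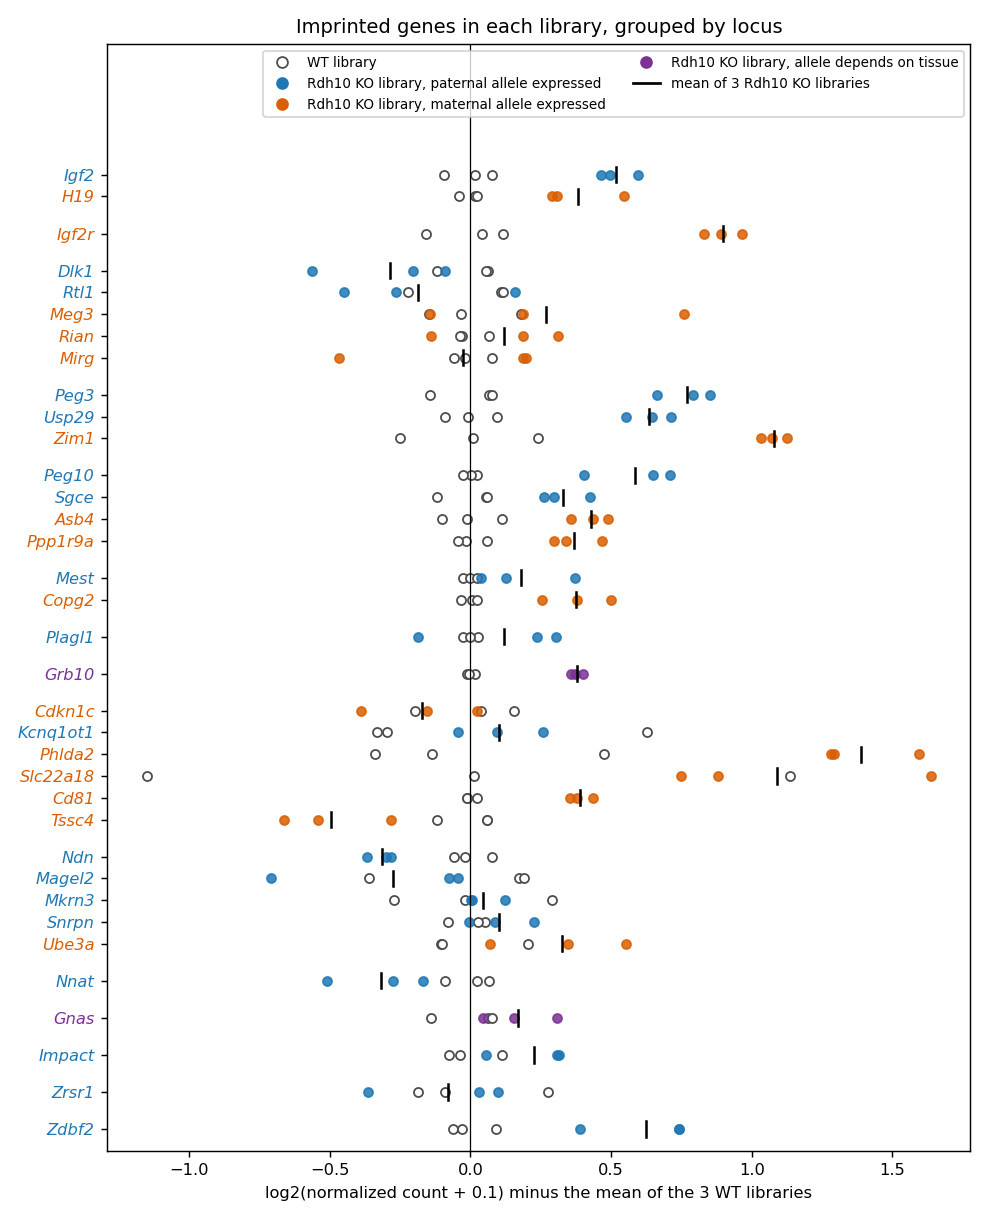
Each point is 1 library: its log2(normalized count + 0.1) for a gene minus the mean of the 3 WT libraries, with genes grouped by locus and coloured by the parental allele known to be expressed. All *Rdh10* KO points shown for the *Igf2*-*H19*, *Igf2r*, *Peg3* and *Peg10*-*Sgce* loci lie above the WT points, those of the *Dlk1*-*Meg3* locus overlap them, and *Ascl2* is left out because its WT libraries held 0 to 2 reads.

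*Igf2*, *H19*, *Igf2r* and *Grb10* were higher in *Rdh10* KO, and they are grouped here, after their values were seen, for a part in insulin-like growth factor signalling or a place beside its ligand. *Ins2*, an imprinted gene of a second list read further below that also lies beside *Igf2*, had 1 read over the 6 libraries and was not tested. *Igf2*, the paternally expressed growth factor (chr7:142650766-142666816 on the minus strand of GRCm38), was counted at 16271, 16976 and 15101 in WT replicates 1 to 3 and 22722, 22183 and 24329.7 in *Rdh10* KO replicates 1 to 3. All 3 *Rdh10* KO values were above all 3 WT values, with a log2 fold change of 0.52 ± 0.07 (SE), limma adjusted p = 0.000181. *H19*, the maternally expressed non-coding RNA that shares its enhancers with *Igf2*, was counted at 34359, 34496 and 33041 in WT replicates 1 to 3 and 42078, 41476 and 49582 in *Rdh10* KO replicates 1 to 3. The groups did not overlap here either, and *Rdh10* KO replicate 3 was the highest library (log2 fold change of 0.38 ± 0.08 (SE), limma adjusted p = 0.00298). The call of *H19* was lost without WT replicate 1, 2 or 3 (adjusted p = 0.0791, 0.075 and 0.064), and its adjusted p ran from 1.01e-05 to 0.105 over 19 alternatives. *Igf2r* (chr17:12682406-12769664) encodes the receptor that takes IGF2 into the cell for degradation and is expressed from the maternal copy. It was counted at 2476, 2351 and 2045 in WT replicates 1 to 3 and 4063, 4238 and 4458 in *Rdh10* KO replicates 1 to 3, the lowest *Rdh10* KO library being well above the highest WT library (log2 fold change of 0.90 ± 0.08 (SE), limma adjusted p = 8.42e-06). *Grb10*, an adaptor that restrains signalling from the insulin and IGF receptors and is expressed from the maternal copy in most tissues and the paternal copy in neurons, was counted at 27989, 27422 and 27554 in WT replicates 1 to 3 and 35812, 35467 and 36489 in *Rdh10* KO replicates 1 to 3. Its replicates lay close together in both groups, without overlap (log2 fold change of 0.38 ± 0.06 (SE), limma adjusted p = 0.000708). Of 5723 bases of *Igf2* exons, 3596 are shared with *Gm49394* on the same strand. The study names an Expectation-Maximization approach for transcript abundance. How the reads over these shared bases were divided between the genes is not stated, so the value of *Igf2* is uncertain by them.

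*Igf2* and *H19* also carry microRNAs on their own strand, and both are shown with the seed (bases 2 to 8) in capitals because their host transcripts lie at 1 locus and rose. *Usp29*, which rose too, holds Mir3099 on its strand, which is not shown. The sequences are those of RefSeq for GRCm38.p6, and the mature microRNAs were not measured, since poly(A) libraries do not hold them.
mmu-miR-675-5p: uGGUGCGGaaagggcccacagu
mmu-miR-675-3p: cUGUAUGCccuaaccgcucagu
mmu-miR-483-5p: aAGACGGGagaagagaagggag
mmu-miR-483-3p: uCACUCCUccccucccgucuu
The first pair lies in *H19* (chr7:142577078-142577133, minus strand) and the second pair in *Igf2* (chr7:142654932-142654989, minus strand). The 4 seeds differ from each other. In all, 8 of the 36 genes hold a RefSeq hairpin on their strand, *Mirg* with 14 of them.

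Genes of the same pathway that are not imprinted were listed in full, 17 of 17 tested. Of these, 8 were higher and 2 lower (8 and 2 by edgeR's 2 tests and DESeq2, 8 and 2 at an unadjusted limma p under 0.05), with a median log2 fold change of 0.24. The shares were 47.1% and 11.8%, beside 10.3% and 9.12% of all genes tested. Past the log2 cut-off of 0.85 were the receptors. *Igf1r* was counted at 2205, 2022 and 1985 in WT replicates 1 to 3 and 3628, 3692 and 4481 in *Rdh10* KO replicates 1 to 3, and *Insr* at 716, 758 and 704 in WT replicates 1 to 3 and 1309.6, 1475 and 1489.5 in *Rdh10* KO replicates 1 to 3. Both were higher in all 3 *Rdh10* KO libraries without overlap, by 0.92 (limma adjusted p = 1.3e-05) and 0.97 (limma adjusted p = 6.35e-06) on the log2 scale. The other genes called, named after their values were seen, were with the log2 fold change of each in brackets, the receptor substrates *Irs1* (0.49) and *Irs2* (0.76), the binding proteins *Igfbp3* (0.72) and *Igfbp5* (0.61), the mRNA-binding *Igf2bp1* (0.24) and *Igf2bp2* (0.27) on the higher side, and the ligand *Igf1* (-0.67) and *Igfbpl1* (-0.53) on the lower side. *Igf1* was counted at 871, 945 and 966 in WT replicates 1 to 3 and 627, 637 and 492 in *Rdh10* KO replicates 1 to 3, so the ligand that is not imprinted fell while *Igf2* rose. *Igf2bp1*, the gene of the list with the most reads, was counted at 9768, 9306 and 9857 in WT replicates 1 to 3 and 11848, 11559 and 10710.1 in *Rdh10* KO replicates 1 to 3, and its call (limma adjusted p = 0.0187) was lost without WT replicate 1, 2 or 3 (adjusted p = 0.0996, 0.133 and 0.0737) or *Rdh10* KO replicate 1 or 2 (adjusted p = 0.0683 and 0.0772), with median scaling (adjusted p = 0.0501) or with the replicate number as a block (adjusted p = 0.0713), with 0.00301 to 0.158 over 19 alternatives. *Igf2bp2* lost its call without WT replicate 1, 2 or 3 (adjusted p = 0.0583, 0.0695 and 0.0621), with 0.00061 to 0.116 over 19 alternatives, and *Igfbpl1* without WT replicate 1 or 2 (adjusted p = 0.0756 and 0.075) or *Rdh10* KO replicate 3 (adjusted p = 0.0514), with 0.000275 to 0.0934 over 19 alternatives.

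**Figure D2:**
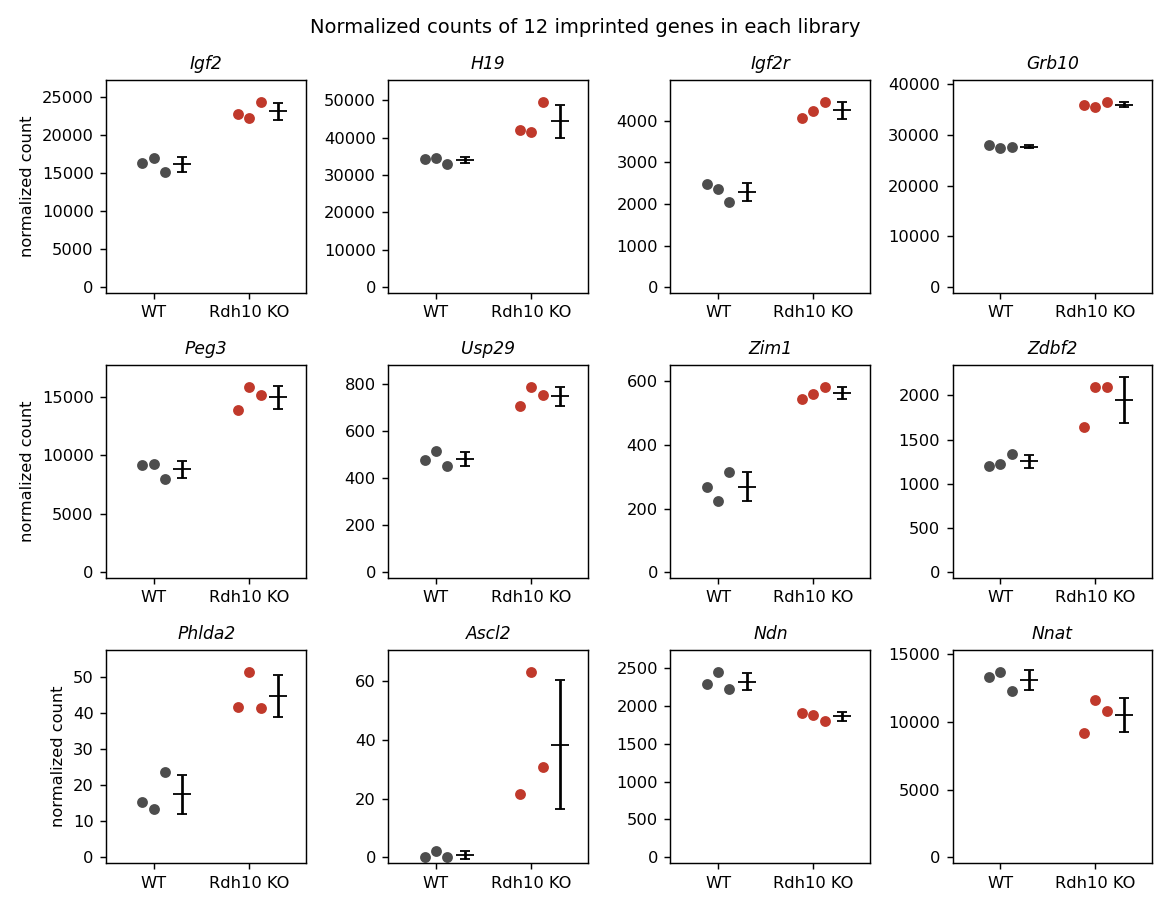
Normalized counts of 12 imprinted genes, each point 1 library (WT grey, *Rdh10* KO red), with the mean and SD of the 3 libraries beside them, all axes starting near 0. In 10 genes every *Rdh10* KO library is above every WT library, and in *Ndn* and *Nnat* every one is below.

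Of the 36 genes, 3 lie at the *Peg3* locus, and they rose while *Zfp264* beyond *Usp29* fell. *Peg3* (chr7:6703892-6730431), a paternally expressed zinc finger gene with roles in growth and maternal behaviour, was counted at 9183, 9262 and 7945 in WT replicates 1 to 3 and 13887, 15849.8 and 15199 in *Rdh10* KO replicates 1 to 3. *Usp29*, also paternally expressed and transcribed away from *Peg3* on the other strand, was counted at 478, 513 and 451 in WT replicates 1 to 3 and 704, 786 and 751 in *Rdh10* KO replicates 1 to 3. Neither gene's groups overlapped, and the log2 fold changes were 0.77 ± 0.08 (SE, limma adjusted p = 2.29e-05) and 0.64 ± 0.09 (SE, limma adjusted p = 0.000362). *Zim1*, the maternally expressed zinc finger gene beside *Peg3*, was counted at 268, 224 and 314 in WT replicates 1 to 3 and 544, 560.0 and 581 in *Rdh10* KO replicates 1 to 3. It had the largest log2 fold change of the 3, 1.08 ± 0.12 (SE), limma adjusted p = 6.72e-05. These 3 genes and *Igf2r* were the ones of the 36 called under every alternative run, leaving out each library included. *Usp29* shares 2582 of 18078 exon bases with *Zim3* on the opposite strand. *Zfp264*, taken from the list of other imprinted genes and annotated as a transcribed unprocessed pseudogene, lies past the end of *Usp29* (chr7:6977246-6991087, with *Usp29* at chr7:6730578-6967219) and moved the other way. It was counted at 32.7, 34.5 and 19.8 in WT replicates 1 to 3 and 11.5, 2.13 and 1.18 in *Rdh10* KO replicates 1 to 3, which was lower in all 3 *Rdh10* KO libraries (log2 fold change of -3.14 ± 0.73 (SE), limma adjusted p = 0.00774). Its call was lost without WT replicate 1, 2 or 3 (adjusted p = 0.136, 0.127 and 0.0784) or *Rdh10* KO replicate 2 or 3 (adjusted p = 0.0967 and 0.0949), and its adjusted p ran from 7.58e-05 to 0.136 over 18 alternatives.

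*Peg3* and *Usp29* start 163 bases apart on opposite strands, so that a single stretch lies upstream of both, and it is printed because both genes rose by a similar size. It is given 5′ to 3′ on the plus strand, chr7:6730420-6730582 of GRCm38.p6, from the base after the RefSeq start of *Peg3* to the base before that of *Usp29*, and it has 5 CG dinucleotides. The upstream stretch of *Zim1*, chr7:6696433-6696682, is given on its own minus strand and ends at the base before the RefSeq start. Capitals mark TGCCGC or its reverse complement, the hexamer that ZFP57 binds when it is methylated at control regions.
Peg3-Usp29: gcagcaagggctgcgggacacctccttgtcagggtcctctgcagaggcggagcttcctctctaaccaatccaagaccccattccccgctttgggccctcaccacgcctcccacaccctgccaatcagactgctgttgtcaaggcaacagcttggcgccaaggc
Zim1: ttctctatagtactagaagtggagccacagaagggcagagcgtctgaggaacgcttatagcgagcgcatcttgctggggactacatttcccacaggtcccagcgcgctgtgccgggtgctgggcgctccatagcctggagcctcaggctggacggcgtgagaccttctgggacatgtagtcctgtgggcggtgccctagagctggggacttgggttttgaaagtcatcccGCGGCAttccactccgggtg
The stretch between *Peg3* and *Usp29* holds 0 such hexamers and that of *Zim1* holds 1.

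Of the 36 genes, 4 lie at the *Peg10*-*Sgce* locus, and they rose. The region was not higher throughout, since *Pon2*, a gene of the second list that lies between *Ppp1r9a* and *Asb4* (chr6:5264147-5298455), was lower (log2 fold change -0.46, limma adjusted p = 0.0204), a call whose stability is given with that list. *Calcr*, *Tfpi2*, *Casd1* and *Pon3*, of the same list and the same part of chromosome 6, were not called by limma. *Peg10* (chr6:4747306-4760517), a paternally expressed gene derived from a retrotransposon and required for placental development, was counted at 7526, 7424 and 7268 in WT replicates 1 to 3 and 9798, 11606 and 12102 in *Rdh10* KO replicates 1 to 3. Its groups did not overlap (log2 fold change of 0.59 ± 0.08 (SE), limma adjusted p = 0.000186). *Sgce*, the paternally expressed gene for epsilon-sarcoglycan, was counted at 515, 581 and 582 in WT replicates 1 to 3 and 685, 669.9 and 749 in *Rdh10* KO replicates 1 to 3. Its increase was small (log2 fold change of 0.33 ± 0.09 (SE), limma adjusted p = 0.0229), and its call was lost without WT replicate 1, 2 or 3 (adjusted p = 0.108, 0.0842 and 0.0688) or *Rdh10* KO replicate 2 or 3 (adjusted p = 0.0507 and 0.0816) or with the replicate number as a block (adjusted p = 0.0549), with 0.0132 to 0.124 over 19 alternatives. The maternally expressed genes among these 4 are *Asb4*, a substrate adaptor of a ubiquitin ligase, and *Ppp1r9a*, which encodes the actin-binding protein neurabin. *Asb4* was counted at 747, 813 and 701 in WT replicates 1 to 3 and 1019, 1057 and 965 in *Rdh10* KO replicates 1 to 3. *Ppp1r9a* was counted at 843, 826 and 887 in WT replicates 1 to 3 and 1048, 1078 and 1179 in *Rdh10* KO replicates 1 to 3. Both were higher in all *Rdh10* KO libraries than in any WT library, by 0.43 (limma adjusted p = 0.00318) and 0.37 (limma adjusted p = 0.00575) on the log2 scale. *Asb4* lost its call without WT replicate 1 (adjusted p = 0.0558), with 0.000173 to 0.0785 over 19 alternatives, and *Ppp1r9a* without WT replicate 1 or 2 (adjusted p = 0.0601 and 0.065), with 0.000812 to 0.0846 over 19 alternatives.

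Of the 36 genes, 2 lie at the *Mest* locus, and 1 of them passed the test. *Mest*, a paternally expressed gene of the mesoderm, was counted at 44876, 45639.6 and 46440.3 in WT replicates 1 to 3 and 49846, 59092 and 46808 in *Rdh10* KO replicates 1 to 3. Every *Rdh10* KO library was above every WT library, but replicate 3 exceeded the highest WT library only slightly and the test was not passed (log2 fold change of 0.18 ± 0.08 (SE), limma adjusted p = 0.156). *Copg2*, the maternally expressed gene for a coatomer subunit, was counted at 2105, 2164 and 2191 in WT replicates 1 to 3 and 2567, 2801 and 3043 in *Rdh10* KO replicates 1 to 3. It rose without overlap (log2 fold change of 0.38 ± 0.08 (SE), limma adjusted p = 0.00298), and its call was lost without WT replicate 1 or 2 (adjusted p = 0.065 and 0.0602), with 6.16e-05 to 0.0945 over 19 alternatives. *Mest* and *Copg2* run towards each other and share 912 exon bases on opposite strands. Whether the counting used strand is not given in the sources used here, and *Mest* has many more reads than *Copg2*, so the value of *Copg2* is uncertain by the reads of *Mest* that may fall in it.

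The *Kcnq1* locus was mixed. Its paternally expressed non-coding RNA *Kcnq1ot1* silences genes of the cluster in cis. It was at 396, 386 and 751 in WT replicates 1 to 3 and 472, 519.5 and 581 in *Rdh10* KO replicates 1 to 3. WT replicate 3 was the highest library and the groups overlapped (log2 fold change 0.10, limma adjusted p = 0.772). *Cdkn1c*, the maternally expressed inhibitor of the cell cycle, was counted at 6721, 7287 and 5709 in WT replicates 1 to 3 and 4997, 5883 and 6649.8 in *Rdh10* KO replicates 1 to 3, again with overlap (log2 fold change -0.17, limma adjusted p = 0.293). Neither passed the test. *Phlda2*, a maternally expressed gene that limits placental growth, had few reads. It was counted at 15.3, 13.3 and 23.5 in WT replicates 1 to 3 and 41.5, 51.2 and 41.2 in *Rdh10* KO replicates 1 to 3, above WT in all 3 *Rdh10* KO libraries (log2 fold change of 1.39 ± 0.34 (SE), limma adjusted p = 0.00966). Its call was lost without WT replicate 1 or 2 (adjusted p = 0.0782 and 0.0738) or *Rdh10* KO replicate 2 or 3 (adjusted p = 0.0682 and 0.0563), with 0.000399 to 0.0782 over 19 alternatives. *Cd81*, a tetraspanin gene, is listed as maternally expressed. It was at 2162, 2159 and 2213 in WT replicates 1 to 3 and 2944, 2830.1 and 2786 in *Rdh10* KO replicates 1 to 3. It rose with little spread within either group (log2 fold change of 0.39 ± 0.07 (SE), limma adjusted p = 0.000995). *Tssc4*, listed as maternally expressed and involved in assembly of the spliceosome, fell. It was counted at 1178, 1177 and 1043 in WT replicates 1 to 3 and 931, 715 and 778 in *Rdh10* KO replicates 1 to 3, without overlap (log2 fold change of -0.49 ± 0.10 (SE), limma adjusted p = 0.00366). Its call was lost without WT replicate 1 or 2 (adjusted p = 0.0892 and 0.0869) or *Rdh10* KO replicate 3 (adjusted p = 0.0679), with 0.000166 to 0.108 over 19 alternatives. *Slc22a18*, a transporter gene, had 2.23 to 16 normalized counts in the 6 libraries and did not pass (log2 fold change 1.09, limma adjusted p = 0.307).

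*Ascl2* showed the largest fold change of the 36 genes and rested on few reads. It encodes a transcription factor needed for the spongiotrophoblast of the placenta and is expressed from the maternal copy. It was counted at 0, 2.23 and 0 in WT replicates 1 to 3 and 21.5, 62.9 and 30.6 in *Rdh10* KO replicates 1 to 3, which is 2 reads in all in the 3 WT libraries against 115 in the 3 *Rdh10* KO libraries. The ratio of reads per unit of depth was 53.1, with a 95% exact interval of 14.4 to 444 that covers counting error only. The limma adjusted p was 0.00096, and the call was lost without WT replicate 1 (adjusted p = 0.058), with 5.05e-13 to 0.0734 over 19 alternatives. Markers of the placenta and the decidua were read beside it. Of 16 trophoblast markers 8 were tested, and limma called 2 higher and 0 lower (2 and 1 by edgeR's quasi-likelihood test, 3 and 1 by its likelihood ratio test, 1 and 0 by DESeq2, 3 and 2 at an unadjusted limma p under 0.05). The hormone gene *Prl3d1*, a marker of trophoblast giant cells, had no read in WT and was at 7.16, 2.13 and 5.88 normalized counts in *Rdh10* KO replicates 1 to 3, at least 1.51-fold above the limit set by 3 reads in the WT library with the highest limit (limma adjusted p = 0.0121). Its call was lost without *Rdh10* KO replicate 1 (adjusted p = 0.0544), with 0.00121 to 0.0544 over 16 alternatives. *Plet1* was counted at 20.5, 12.2 and 17.9 in WT replicates 1 to 3 and 47.3, 32.0 and 41.2 in *Rdh10* KO replicates 1 to 3 (log2 fold change 1.26, limma adjusted p = 0.0195), and its call was lost without WT replicate 1, 2 or 3 (adjusted p = 0.0668, 0.0961 and 0.074) or *Rdh10* KO replicate 1 or 3 (adjusted p = 0.0877 and 0.0913), with 0.0016 to 0.0961 over 19 alternatives. Of 9 decidua markers 8 were tested, 2 were higher and 0 lower (2 and 0 by edgeR's 2 tests, 1 and 0 by DESeq2, 2 and 1 at an unadjusted limma p under 0.05). *Prl8a2*, a prolactin-like gene of decidual cells, had no read in WT and was at 32.2, 13.9 and 18.8 in *Rdh10* KO, at least 6.48-fold higher by the same limit (limma adjusted p = 0.000264). The other, *Gja1*, is used widely in embryos and was counted at 4668, 4544 and 4665 in WT replicates 1 to 3 and 6440.0, 6245 and 5353 in *Rdh10* KO replicates 1 to 3 (log2 fold change 0.37, limma adjusted p = 0.0031), and its call was lost without WT replicate 1, 2 or 3 (adjusted p = 0.0704, 0.0759 and 0.0524), with 3.28e-05 to 0.107 over 19 alternatives.

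The summed level of the trophoblast list overlapped between the groups. It was 586, 523 and 478 in WT and 474, 526 and 519 in *Rdh10* KO, most of it from *Tfap2c*, which the surface ectoderm and neural crest also express (476, 443 and 382 in WT replicates 1 to 3 and 355, 432 and 419 in *Rdh10* KO replicates 1 to 3). The other markers of the list with reads were named after their values were seen. *Prl3b1*, a placental lactogen gene, was counted at 36.8, 22.3 and 36.7 in WT replicates 1 to 3 and 21.5, 9.6 and 12.9 in *Rdh10* KO replicates 1 to 3. All 3 *Rdh10* KO libraries were below all 3 WT libraries, and limma did not call it (log2 fold change -1.16, limma adjusted p = 0.0646). It passed by edgeR's quasi-likelihood and likelihood ratio tests (adjusted p = 0.0402 and 0.0263), with a mean above 10 or an FPKM above 0.5 (0.0379 and 0.0357) and without *Rdh10* KO replicate 1 (0.0447), with 0.0263 to 0.259 over 19 alternatives. *Plac1* (log2 fold change -0.22, limma adjusted p = 0.717) and *Elf5* (log2 fold change -0.54, limma adjusted p = 0.548) were not called, nor was *Hand1*, a gene also of the heart (log2 fold change 1.92, limma adjusted p = 0.101, 0.0475 by edgeR's likelihood ratio test, with 0.0475 to 0.269 over 16 alternatives). *Gcm1* had 4 reads, all in WT (limma adjusted p = 0.134, 0.0192 by limma without trend, with 0.0192 to 0.237 over 16 alternatives). Over all 6 libraries *Syna* had 2 reads, *Ctsj* 2 and *Prl2c2* 1. The decidua list summed to 5379, 5132 and 5283 in WT and 7232, 6884 and 6033 in *Rdh10* KO, most of it from *Gja1*. The part of extraembryonic or maternal RNA in the level of *Ascl2* was not tested.

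None of the 5 genes of the 36 at the *Dlk1*-*Meg3* locus passed limma in the main setting, where 1, *Dlk1*, was lower at an unadjusted p under 0.05. *Dlk1* (chr12:109452823-109463336), a paternally expressed membrane protein of the Notch ligand family, was counted at 6460.5, 6439 and 5705 in WT replicates 1 to 3 and 4193, 5372 and 5819 in *Rdh10* KO replicates 1 to 3, and *Meg3*, the maternally expressed non-coding RNA, at 1989, 1842 and 2309 in WT replicates 1 to 3 and 1844, 2317 and 3453 in *Rdh10* KO replicates 1 to 3. The groups overlapped for both, with log2 fold changes of -0.29 (limma adjusted p = 0.0663) and 0.27 (limma adjusted p = 0.304). *Dlk1* was called lower in 7 of the 13 alternatives that keep all libraries. They were limma with a pseudocount of 1 (adjusted p = 0.0384), a mean above 10 (0.0457), an FPKM above 0.5 (0.0472) or median scaling (0.0332), edgeR's quasi-likelihood and likelihood ratio tests (0.0303 and 0.0469) and DESeq2 (0.0294). It was not called without any 1 library, with 0.0294 to 0.358 over 19 alternatives. The maternally expressed non-coding RNAs *Rian* and *Mirg* were counted at 4921, 4902 and 5257 in WT replicates 1 to 3 and 4558, 6234 and 5720.4 in *Rdh10* KO replicates 1 to 3, and at 231, 254 and 238 in WT replicates 1 to 3 and 174, 274 and 276 in *Rdh10* KO replicates 1 to 3. *Rdh10* KO replicate 1 was the lowest of the 6 libraries for *Dlk1*, *Rtl1*, *Rian* and *Mirg*. Without it, *Rian* passed (adjusted p = 0.0425, 0.0425 to 0.908 over 19 alternatives). *Rtl1*, a paternally expressed gene derived from a retrotransposon, had 27.9 to 42.7 normalized counts (log2 fold change -0.19, limma adjusted p = 0.719). *Plagl1*, a paternally expressed zinc finger gene on another chromosome that is known as a regulator of other imprinted genes, was counted at 2374, 2466 and 2417 in WT replicates 1 to 3 and 2125, 2851 and 2989.6 in *Rdh10* KO replicates 1 to 3. It did not pass (log2 fold change 0.12, limma adjusted p = 0.492), *Rdh10* KO replicate 1 was again the lowest library, and without that library the adjusted p was 0.0231 (0.0231 to 0.923 over 19 alternatives).

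*Rdh10* KO replicate 1 also stood apart in markers of cell types. Of the 8 embryonic blood markers limma called 0 in either direction, edgeR and DESeq2 1 lower, and 1 was lower at an unadjusted p under 0.05. They summed to 125442, 99754 and 134086 normalized counts in WT and 50619, 119014 and 155111 in *Rdh10* KO, and *Hbb-y* had the highest mean count of the list (46292, 37281 and 52182 in WT replicates 1 to 3 and 18673, 41224 and 59008 in *Rdh10* KO replicates 1 to 3). The 10 markers of the optic vesicle and retina summed to 4889, 4813 and 5039.9 in WT and 3216, 5043 and 5037 in *Rdh10* KO. In both lists *Rdh10* KO replicate 1 was the lowest library. The part of such differences in tissue content in the low values of that library for the *Dlk1*-*Meg3* locus and *Plagl1* was not tested. Without *Rdh10* KO replicate 1, 18 imprinted genes were higher and 2 lower.

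The genes of the *Snrpn* locus showed no common direction. *Ndn*, the paternally expressed gene for necdin, a protein of postmitotic neurons, was counted at 2285, 2443 and 2223 in WT replicates 1 to 3 and 1905, 1881 and 1797 in *Rdh10* KO replicates 1 to 3. All *Rdh10* KO libraries were below all WT libraries (log2 fold change of -0.32 ± 0.07 (SE), limma adjusted p = 0.00614), and the call was lost without WT replicate 1 or 2 (adjusted p = 0.0558 and 0.0643), with 0.000542 to 0.0956 over 19 alternatives. The paternally expressed genes *Magel2*, *Mkrn3* and *Snrpn* did not pass, with log2 fold changes of -0.28, 0.043 and 0.10 (limma adjusted p = 0.419, 0.89 and 0.443), and the sign of *Mkrn3* turned under quantile normalization. Their WT means were 141, 197 and 1164 normalized counts. *Ube3a*, a ubiquitin ligase gene expressed from the maternal copy in neurons, was counted at 3494, 3498 and 4324 in WT replicates 1 to 3 and 4779, 5507 and 3940.2 in *Rdh10* KO replicates 1 to 3. The groups overlapped, and it did not pass in the main setting (log2 fold change of 0.32 ± 0.11 (SE), limma adjusted p = 0.0561). It was called higher in 8 of the 13 alternatives that keep all libraries. They were limma with a pseudocount of 1 (adjusted p = 0.0294), no filter (0.0457), a mean above 10 (0.0385), an FPKM above 0.5 (0.0399) or quantile normalization (0.043), edgeR's quasi-likelihood and likelihood ratio tests (0.0125 and 0.0161) and DESeq2 (0.014). Without any 1 library it was not called, with 0.0125 to 0.363 over 19 alternatives. *Snrpn* shares exon bases with *Snurf* and with *Gm38393* on the same strand, and *Ube3a* shares 1803 with *Snhg14* on the other strand, so these values are uncertain. *Gm38393* itself was called higher (log2 fold change 0.77, limma adjusted p = 0.00867). When 1 library was left out, its call was kept only without WT replicate 3 (adjusted p = 0.0224), with 0.0003 to 0.175 over 19 alternatives.

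*Nnat*, *Zdbf2*, *Gnas*, *Impact* and *Zrsr1* lie singly or in small loci. *Nnat*, the paternally expressed gene for neuronatin, a membrane protein of the embryonic nervous system, was counted at 13280.0, 13666 and 12267 in WT replicates 1 to 3 and 9171, 11621 and 10784 in *Rdh10* KO replicates 1 to 3. It fell (log2 fold change of -0.32 ± 0.08 (SE), limma adjusted p = 0.0155), but its call was lost without WT replicate 1, 2 or 3 (adjusted p = 0.176, 0.182 and 0.0809) or *Rdh10* KO replicate 1 or 3 (adjusted p = 0.0743 and 0.104) or with quantile normalization (adjusted p = 0.0534), and its adjusted p ran from 0.00218 to 0.191 over 19 alternatives. Neuron markers are given beside *Ndn* and *Nnat*. Of 12 markers limma called 1 lower and 0 higher, while edgeR and DESeq2 each called 1 higher and 1 lower, and at an unadjusted limma p under 0.05 1 was higher and 2 were lower. The lower gene was *Stmn2* (log2 fold change -0.32, limma adjusted p = 0.0494), whose call was lost without WT replicate 1, 2 or 3 (adjusted p = 0.252, 0.306 and 0.0932) or *Rdh10* KO replicate 1, 2 or 3 (adjusted p = 0.212, 0.231 and 0.0511), with a pseudocount of 0.01 (adjusted p = 0.0715), with quantile normalization (adjusted p = 0.0577), with TMM scaling (adjusted p = 0.0517) or with the replicate number as a block (adjusted p = 0.119), with 0.0219 to 0.306 over 19 alternatives. Their sums were 14245, 15069.7 and 11878 in WT and 12564, 11338 and 15096 in *Rdh10* KO and overlapped, and *Tubb3* had the highest mean count (4446, 4711 and 3573 in WT replicates 1 to 3 and 3524, 2972 and 4053 in *Rdh10* KO replicates 1 to 3, log2 fold change -0.27, limma adjusted p = 0.115). The part of neuron number in the levels of *Ndn* and *Nnat* was not tested. *Zdbf2*, a paternally expressed gene that acts on growth through the hypothalamus, was counted at 1200.0, 1227 and 1335 in WT replicates 1 to 3 and 1643, 2093 and 2093 in *Rdh10* KO replicates 1 to 3. It rose without overlap (log2 fold change of 0.62 ± 0.10 (SE), limma adjusted p = 0.000539), and the call was lost without WT replicate 1 (adjusted p = 0.0539), with 1.6e-08 to 0.0747 over 19 alternatives. *Gnas*, the gene for a stimulatory G protein subunit with several promoters of different imprinting, was counted at 24434, 24665 and 21241 in WT replicates 1 to 3 and 26046, 24106 and 28961 in *Rdh10* KO replicates 1 to 3 and did not pass (log2 fold change 0.17, limma adjusted p = 0.178). *Impact* and *Zrsr1*, both paternally expressed, did not pass either, with log2 fold changes of 0.23 (limma adjusted p = 0.0928) and -0.079 (limma adjusted p = 0.792). *Impact* had an adjusted p of 0.046 without *Rdh10* KO replicate 3, with 0.046 to 0.334 over 19 alternatives.

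*Zdbf2* has a pair of RefSeq starts. The stretch of 250 bases before the first of them is printed because it holds 3 of the hexamers described for *Zim1*, marked in capitals. That is the most in any upstream stretch of the 30 genes, among the 36, that matched a RefSeq entry. It lies at chr1:63200108-63200357 of GRCm38.p6 on the plus strand, inside the gene *Gpr1*, and its last bases overlap the non-coding gene *Platr12*.
Zdbf2 first start: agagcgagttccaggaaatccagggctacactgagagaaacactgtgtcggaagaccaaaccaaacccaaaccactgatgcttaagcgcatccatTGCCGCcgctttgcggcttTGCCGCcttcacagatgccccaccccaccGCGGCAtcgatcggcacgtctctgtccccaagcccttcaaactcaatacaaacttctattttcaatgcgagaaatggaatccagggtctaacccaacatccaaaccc
The data here do not separate transcripts from either start.

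By the allele listed for each gene, more maternally than paternally expressed genes were higher in the main setting. Whether each gene is expressed from that copy alone in this tissue was not measured. Of all genes tested, 10.3% were higher and 9.12% lower. The order turned without WT replicate 1. The genes then called higher were *Igf2*, *Peg3*, *Usp29* and *Peg10* of the paternally expressed and *Igf2r*, *Zim1* and *Cd81* of the maternally expressed genes. The allele groups were even without WT replicate 2 and by limma without its trend. Of 18 paternally expressed genes 6 were higher (33.3%), 2 lower (11.1%) and 10 not called, with a median log2 fold change of 0.11. This median moved with the library left out, over the range given below with the dependence on processing. Of 16 maternally expressed genes 9 were higher (56.25%), 1 lower (6.25%) and 6 not called, with a median of 0.38. *Ascl2* is the highest of the 16 at either end of its counting interval, so that interval cannot move this median. *Grb10*, 1 of the 2 genes grouped here as depending on the tissue, was higher. *Ube3a*, expressed from the maternal copy in neurons, was counted with the maternally expressed genes. The difference between the allele groups was not tested. In each library, the median difference from the WT mean was 0.058, 0.20 and 0.14 for the paternally expressed genes and 0.33, 0.38 and 0.48 for the maternally expressed genes in *Rdh10* KO replicates 1 to 3. In WT replicates 1 to 3 the paternal medians were -0.022, 0.057 and -0.014 and the maternal medians -0.013, -0.0026 and 0.024. The maternal median was above every WT value in all 3 *Rdh10* KO libraries, and the paternal median of *Rdh10* KO replicate 1 was close to that of WT replicate 2.

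Imprinted genes were also compared in pairs within each library (7 pairs of opposite parental expression, and *Sgce* and *Peg10*, both paternally expressed), as the log2 ratio of their normalized counts, which does not depend on the size factor. The exact permutation test used for the ratios cannot go below 0.1 with 3 libraries against 3, so none of the 8 pairs could pass it. The ratio of *Meg3* to *Dlk1* was -1.70, -1.81 and -1.30 in WT and -1.18, -1.21 and -0.75 in *Rdh10* KO, a difference of 0.55 (exact permutation p = 0.1, adjusted over the 8 pairs 0.32). The groups did not overlap. The ratio of *Igf2r* to *Igf2*, a receptor and its ligand on different chromosomes, was -2.72, -2.85 and -2.88 in WT and -2.48, -2.39 and -2.45 in *Rdh10* KO, a difference of 0.38 with the same p-values. The groups did not overlap here either. *H19* to *Igf2* was 1.08, 1.02 and 1.13 in WT and 0.89, 0.90 and 1.03 in *Rdh10* KO and overlapped by 1 library (exact permutation p = 0.2). The others, *Sgce* to *Peg10* (-0.26), *Copg2* to *Mest* (0.20), *Zim1* to *Peg3* (0.31), *Kcnq1ot1* to *Cdkn1c* (0.28) and *Ube3a* to *Snrpn* (0.22), overlapped between the groups.

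**Figure D3:**
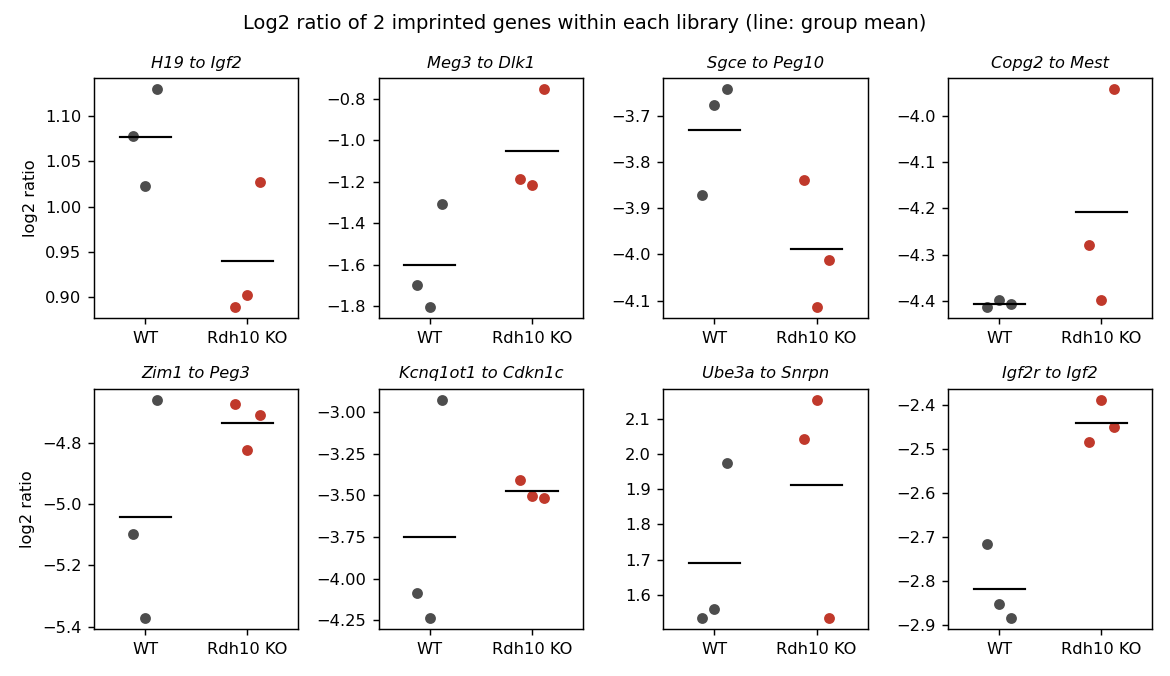
Log2 ratio of the normalized counts of 2 imprinted genes in each library for 8 pairs, with a line at the mean of the 3 libraries of a group; the vertical scales differ between pairs. WT and *Rdh10* KO do not overlap for *Meg3* to *Dlk1* and *Igf2r* to *Igf2* and overlap for the others, and no pair passed the exact test.

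Levels of different genes were compared per length, as FPKM from the recovered reads and exon lengths. In WT the genes ran from *H19* at 706 ± 16.5 FPKM (SD, n = 3) and *Mest* at 591 ± 9.69 to *Rtl1* at 0.309 ± 0.0391, *Kcnq1ot1* at 0.281 ± 0.114, *Slc22a18* at 0.187 ± 0.139 and *Ascl2*, which was near its limit. *Nnat* followed *Mest* at 365 ± 19.9 FPKM. *Cdkn1c* (165 ± 19.9), *Grb10* (155 ± 1.99) and *Igf2* (144 ± 8.31) were next, and the first pair of these differed by less than the SD of *Cdkn1c*. *Gnas* was at 107 ± 8.71 FPKM, *Peg10* at 56.8 ± 1.04 and *Dlk1* at 56.0 ± 3.88, and *Peg10* and *Dlk1* differed by less than their SDs. In *Rdh10* KO, *H19* was at 927 ± 103 FPKM and *Mest* at 675 ± 74.6, while *Igf2* (207 ± 12.3) and *Grb10* (203 ± 5.27) were above *Cdkn1c* (147 ± 21.4). *Igf2r* was at 12.6 ± 1.22 FPKM in WT and 23.5 ± 1.22 in *Rdh10* KO, below *Igf2* in every library.

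**Figure D4:**
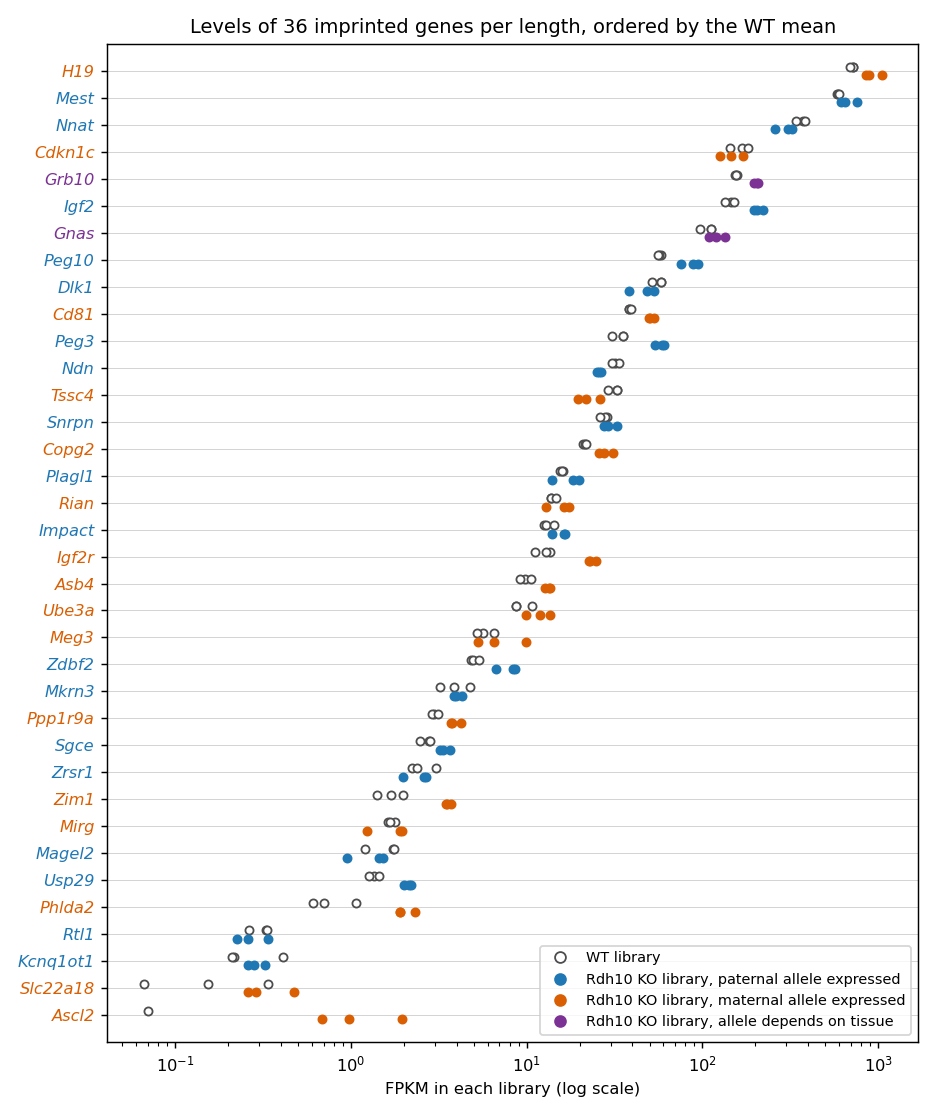
FPKM of each of the 36 genes in each library on a log axis, ordered by the WT mean (open points WT, filled points *Rdh10* KO, coloured by the allele known to be expressed). *H19* and *Mest* have the highest levels; for *Ascl2* a single WT library is drawn, since the others held 0 reads.

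Other imprinted genes, 41 in a second list, were split between higher and lower. Of 37 tested, 5 were higher and 7 lower (5 and 7 by edgeR's 2 tests, 4 and 7 by DESeq2, 8 and 8 at an unadjusted limma p under 0.05), with a median log2 fold change of -0.01. The shares were 13.5% and 18.9%, beside 10.3% and 9.12% of all genes tested. Past the log2 cut-off were *Sfmbt2*, *Rasgrf1* and *Zfp264*. *Sfmbt2* is a Polycomb gene known as paternally expressed, which was not measured here. It was at 63.4, 70.1 and 84.6 in WT replicates 1 to 3 and 202, 237 and 253 in *Rdh10* KO replicates 1 to 3. The groups did not overlap (log2 fold change of 1.67 ± 0.17 (SE), limma adjusted p = 2.57e-05). *Rasgrf1*, a paternally expressed exchange factor for Ras, had 4 reads in the 3 WT libraries and 31 in the 3 *Rdh10* KO libraries, a ratio per unit of depth of 7.16 (95% exact interval of 2.53 to 27.9, counting error only). Its call (limma adjusted p = 0.0374) was lost without WT replicate 1, 2 or 3 (adjusted p = 0.159, 0.114 and 0.0583) or *Rdh10* KO replicate 1, 2 or 3 (adjusted p = 0.138, 0.204 and 0.154), with a pseudocount of 0.01 (adjusted p = 0.104) or with the replicate number as a block (adjusted p = 0.0751), with 0.00341 to 0.204 over 16 alternatives. Named after their values were seen, *Slc38a4* (log2 fold change 0.64, limma adjusted p = 0.000188), *Ago2* (log2 fold change 0.58, limma adjusted p = 9.98e-05) and *Trappc9* (log2 fold change 0.45, limma adjusted p = 0.0124) were also higher, and *Trappc9* lost its call without WT replicate 1, 2 or 3 (adjusted p = 0.13, 0.0621 and 0.116) or *Rdh10* KO replicate 2 or 3 (adjusted p = 0.0996 and 0.113), with 0.00198 to 0.14 over 19 alternatives. *Nap1l4*, the gene of the list with the most reads, fell from 7485, 7589 and 7678 in WT to 6303, 6073 and 5769 in *Rdh10* KO (log2 fold change -0.33, limma adjusted p = 0.00233). *Pon2*, *Ddc*, *Peg12*, *Mcts2* and *Commd1* were the other genes that were lower, with log2 fold changes of -0.46, -0.65, -0.30, -0.45 and -0.41. Of these, *Pon2* lost its call without WT replicate 1, 2 or 3 (adjusted p = 0.186, 0.0898 and 0.153) or *Rdh10* KO replicate 2 or 3 (adjusted p = 0.0559 and 0.0935) or with the replicate number as a block (adjusted p = 0.0571), with 0.00754 to 0.186 over 19 alternatives. *Ddc* lost it without WT replicate 1, 2 or 3 (adjusted p = 0.163, 0.139 and 0.156) or *Rdh10* KO replicate 2 or 3 (adjusted p = 0.0792 and 0.124), with 0.00695 to 0.164 over 19 alternatives. *Peg12* lost it without WT replicate 1 or 2 (adjusted p = 0.0633 and 0.0682), with 0.00277 to 0.093 over 19 alternatives, and *Mcts2* without WT replicate 1 or 2 (adjusted p = 0.062 and 0.0627), with 0.003 to 0.067 over 19 alternatives. *Airn*, the non-coding RNA that runs across *Igf2r* on the other strand and silences it on the paternal copy, was counted at 66.5, 64.5 and 78.0 in WT replicates 1 to 3 and 91.7, 92.8 and 118 in *Rdh10* KO replicates 1 to 3, without overlap, and did not pass (log2 fold change 0.53, limma adjusted p = 0.0771).

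Genes that keep or remove methylation at imprinted loci were read as the next list. Of 23 tested, 3 were higher and 2 lower (3 and 2 by edgeR's 2 tests and DESeq2, 4 and 3 at an unadjusted limma p under 0.05), with a median log2 fold change of -0.0071. As shares of the list, these limma counts were close to the 10.3% higher and 9.12% lower among all genes tested. The higher genes were all of the TET family, which oxidizes methylcytosine. *Tet1* was counted at 541, 599 and 636 in WT replicates 1 to 3 and 1192, 1897 and 1508 in *Rdh10* KO replicates 1 to 3, and *Tet2* at 458, 509 and 434 in WT replicates 1 to 3 and 679.5, 1014 and 967 in *Rdh10* KO replicates 1 to 3. Both groups were apart, with log2 fold changes of 1.35 (limma adjusted p = 2.23e-05) and 0.91 (limma adjusted p = 0.000391), and *Tet2* lost its call without WT replicate 1 (adjusted p = 0.0541), with 2.47e-10 to 0.0733 over 19 alternatives. *Tet3* was counted at 1715, 1601 and 1731 in WT replicates 1 to 3 and 2278, 2041 and 2359 in *Rdh10* KO replicates 1 to 3 (log2 fold change 0.40, limma adjusted p = 0.00228) and lost its call without WT replicate 1 or 2 (adjusted p = 0.0514 and 0.0576), with 3.05e-05 to 0.0849 over 19 alternatives. *Trim28*, the corepressor that works with ZFP57 and the gene of the list with the most reads, was counted at 21875, 21642 and 19804 in WT replicates 1 to 3 and 18436, 16894 and 16987 in *Rdh10* KO replicates 1 to 3, lower in all 3 *Rdh10* KO libraries (log2 fold change -0.28, limma adjusted p = 0.0105). Its call was lost without WT replicate 1 or 2 (adjusted p = 0.116 and 0.115) or *Rdh10* KO replicate 2 or 3 (adjusted p = 0.0724 and 0.0641) or with quantile normalization (adjusted p = 0.0678), with 0.000704 to 0.138 over 19 alternatives. *Hells*, a chromatin remodeller, was lower (log2 fold change -0.29, limma adjusted p = 0.0341) and lost its call without WT replicate 1, 2 or 3 (adjusted p = 0.148, 0.166 and 0.237) or *Rdh10* KO replicate 1, 2 or 3 (adjusted p = 0.0835, 0.0805 and 0.199), with a pseudocount of 0.01 (adjusted p = 0.0571) or with the replicate number as a block (adjusted p = 0.11), with 0.00998 to 0.247 over 19 alternatives. The maintenance methyltransferase gene *Dnmt1* (log2 fold change 0.17, limma adjusted p = 0.114) and *Zfp57* (log2 fold change 0.17, limma adjusted p = 0.193), named after their values were seen, did not pass. *Dnmt1* passed under quantile normalization (adjusted p = 0.0415), with 0.0415 to 0.341 over 19 alternatives. DNA methylation was not measured.

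**Figure D5:**
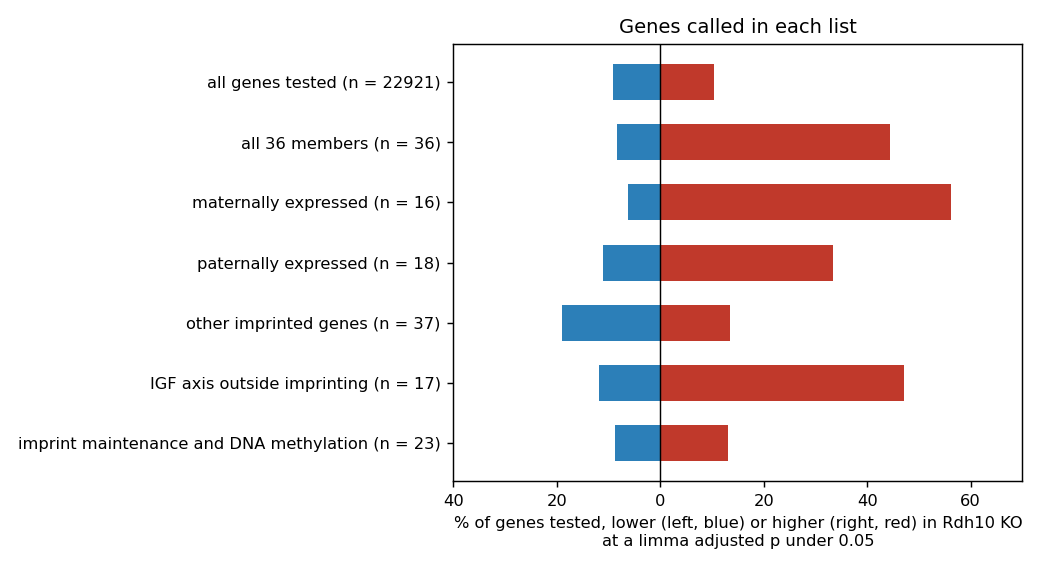
Share of the genes tested that were higher (red, to the right) or lower (blue, to the left) in *Rdh10* KO at a limma adjusted p under 0.05, for all genes and for each list, with the number tested in brackets. The imprinted genes described here reach 44.4% on the higher side, the second list of imprinted genes 13.5%.

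Promoter sequence was compared over the 300 bases from 250 before to 50 after each RefSeq start (GRCm38.p6). Of the 36 genes, 30 matched an entry, and *H19*, *Peg10*, *Sgce*, *Rtl1*, *Cdkn1c* and *Impact* did not. TGCCGC was searched on both strands and was present in at least 1 promoter of 10 of the 30 genes (33.3%), against 13.1% of 27025 genes with an entry. Counted per promoter, 11 of 46 of the imprinted genes held it (23.9%), against 11.6% of all 32851 promoters. The imprinted genes had 1.53 promoters per gene and all genes 1.22. The median of the highest number of CG dinucleotides per gene was 17 in the imprinted genes and 8 in all genes, and the hexamer itself contains CG. Among the imprinted genes with an entry, 5 of 13 that were higher, 1 of 3 that were lower and 4 of 14 that were not called held it. Direct repeats of AGGTCA separated by 2 or 5 bases, a form bound by retinoic acid receptors, were found in 0 of the imprinted genes, and in 2 and 3 of all genes, so these windows say nothing about binding elsewhere.

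Markers of tissues in which imprinted genes of growth are known to be strongly expressed were read last. Of 8 endothelial markers, named where called after their values were seen, 4 were higher and 0 lower by limma, edgeR or DESeq2, with 1 lower at an unadjusted limma p under 0.05. Their summed level was 3731, 4096 and 3590.0 in WT and 5234, 4835 and 4891 in *Rdh10* KO, without overlap. *Kdr*, the gene with the highest mean count of the list, was counted at 805, 975 and 839.7 in WT replicates 1 to 3 and 1446, 1422 and 1413 in *Rdh10* KO replicates 1 to 3 (log2 fold change 0.71, limma adjusted p = 9.11e-05), and *Pecam1* at 431, 402 and 397 in WT replicates 1 to 3 and 697, 636 and 824 in *Rdh10* KO replicates 1 to 3 (log2 fold change 0.80, limma adjusted p = 0.00019). *Cdh5* (log2 fold change 0.39, limma adjusted p = 0.0159) lost its call without WT replicate 1, 2 or 3 (adjusted p = 0.121, 0.052 and 0.0939) or *Rdh10* KO replicate 1, 2 or 3 (adjusted p = 0.0613, 0.114 and 0.0858), with 0.00356 to 0.156 over 19 alternatives, and *Tie1* (log2 fold change 0.36, limma adjusted p = 0.0469) without WT replicate 1, 2 or 3 (adjusted p = 0.243, 0.131 and 0.202) or *Rdh10* KO replicate 1, 2 or 3 (adjusted p = 0.162, 0.103 and 0.0843), with a pseudocount of 0.01 (adjusted p = 0.0608), with median scaling (adjusted p = 0.079), with quantile normalization (adjusted p = 0.0843) or with the replicate number as a block (adjusted p = 0.098), with 0.0208 to 0.243 over 19 alternatives. Of 9 craniofacial mesenchyme markers 2 were higher and 1 lower (2 and 1 by edgeR's 2 tests and DESeq2, 2 and 2 at an unadjusted limma p under 0.05), and their sums were 14750.1, 14705 and 14463 in WT and 14506, 14462 and 15429 in *Rdh10* KO. *Prrx1*, the gene with the highest mean count of the list, did not pass (log2 fold change 0.095, limma adjusted p = 0.448), *Alx4* (log2 fold change -0.95, limma adjusted p = 2.26e-06) fell, and *Snai2* (log2 fold change 0.91, limma adjusted p = 0.000226) rose. The part of endothelial or mesenchymal content in the levels of *Igf2*, *H19* and the other genes that rose was not tested.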

How the data were processed

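Poly(A)-selected, directional libraries were sequenced by the authors, aligned to mm10 with TopHat (version not given in the sources used here) and quantified by an Expectation-Maximization approach. The study names FPKM as its unit, but the deposited signal is whole reads divided by 1 size factor per library, not by gene length: 100% of values in each library were whole reads within 0.1 of a read. The signal was therefore treated as normalized counts, and exon lengths of GENCODE mouse release M21 turned recovered reads into FPKM. The test was limma 3.58.1 (genotype only, with a trend of variance on level) on log2(value + 0.1), for genes with a mean above 0.5. Alternatives were other pseudocounts, filters and scalings, edgeR 4.0.16 and DESeq2 1.42.0 on recovered reads, a replicate block and leaving out each library. Tests were tried on simulated data with changes larger than most of those reported here, so that trial does not bear on the small ones. The named genes and lists (14, of imprinted genes, methylation, the IGF pathway and cell types) were chosen with earlier results of these data known. All members are named. Genes of the lists are named when past adjusted p and log2 cut-off, at most 6 a list by p, with the gene of the highest mean count (not per length), and others after their values were seen. R 4.3.3, Python 3.11.15, pandas 2.3.3 and scipy 1.17.1 were used. A few results are not reported here, and the lists were counted without the genes concerned. Nothing in the sources says whether pools shared litters.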

Additional observations from a re-analysis of the deposited data

How the results depend on the processing

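Of the 19 imprinted genes called, all 19 stayed called with pseudocounts of 1 and 0.01, with no filter, with a mean above 10 or an FPKM above 0.5, with median or TMM scaling and with edgeR or DESeq2, and 18 with quantile normalization. Of the 13 alternatives that keep all libraries, 7 called *Dlk1* lower and 8 called *Ube3a* higher. Limma without trend called 4 imprinted genes higher and 0 lower (2 higher with the log2 cut-off), and 448 higher and 197 lower of all genes (294 and 118 with the cut-off, against 552 and 203 with the trend, and edgeR's likelihood ratio test gave 343 lower). The cause was not tested, here or for the block and the signs below. Leaving out 1 library gave 8 to 18 imprinted genes higher and 0 to 3 lower (2 to 4 higher with the cut-off), 850 to 1983 higher and 427 to 1895 lower of all genes (330 to 525 and 52 to 208 with the cut-off), and fewer samples entered each such test. The paternal median log2 fold change was 0.052 to 0.19 and the maternal median 0.36 to 0.42 without 1 library, and the maternal median was 0.38 with *Grb10* and *Gnas* counted as maternally expressed. With the replicate number as a block, 1715 of all genes were higher and 1387 lower, with 15 and 3 of the imprinted genes. Libraries of the same number did not deviate together from their group means (correlations across genes of -0.0258, -0.0345 and -0.0741). No pairing by number was seen, but with 3 libraries per group this cannot settle whether the numbers pair the libraries. Of the 36 genes, only *Sgce* lost its call in the block, and of the other named genes *Rasgrf1*, *Pon2*, *Igf2bp1*, *Hells*, *Tie1*, *Stmn2*, *Cdh1* and *Emx1* did. Log2 fold changes that did not pass turned sign for *Mkrn3* under quantile normalization (-0.045) and for *Apob* under median scaling (-0.020) and quantile normalization (-0.051), and without 1 library they ranged from -0.14 to 0.19 for *Mirg*, -0.062 to 0.42 for *Kcnq1ot1*, -0.092 to 0.19 for *Mkrn3*, -0.17 to 0.064 for *Zrsr1*, -0.26 to 0.21 for *Apob*, -0.21 to 0.0037 for *Pax6* and -0.69 to 0.14 for *Hbb-y*. All 8 ratios kept their direction with a pseudocount of 1 and without each library. Scaling moved the median of all genes by less than 0.1 on the log2 scale. Pools of 3 embryos hide the variation between embryos, sex and somite stage of the embryos are not given in the sources used here, and depth limits *Ascl2*, *Slc22a18* and *Phlda2*, where a few reads make the value.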

Other observations

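The remaining marker lists describe the tissue itself. Of the optic vesicle and retina markers, 2 of 10 were higher and 2 lower by limma (2 and 3 by edgeR's 2 tests, 2 and 1 by DESeq2, 2 and 5 at an unadjusted limma p under 0.05). *Vax2*, a gene of the ventral optic vesicle, fell from 28.6, 17.8 and 30.1 normalized counts in WT to 5.01, 7.47 and 5.88 in *Rdh10* KO (log2 fold change -2.02, limma adjusted p = 0.00778), a call lost without WT replicate 1 or 3 (adjusted p = 0.0742 and 0.0651), with 6.49e-05 to 0.0742 over 19 alternatives. *Pax6*, the gene with the highest mean count of the list over the 6 libraries, was counted at 1394, 1503 and 1526 in WT replicates 1 to 3 and 1160.0, 1569 and 1391 in *Rdh10* KO replicates 1 to 3. Forebrain markers summed to 5993, 5787 and 5802 in WT and 5050.2, 7745 and 6956 in *Rdh10* KO, with 1 of 8 higher (*Otx2*, also the gene with the highest mean count, log2 fold change 0.53, limma adjusted p = 0.000812) and 1 lower (*Emx1*, log2 fold change -0.67, limma adjusted p = 0.0242) by limma (1 and 2 by edgeR's 2 tests, 1 and 1 by DESeq2, 1 and 2 at an unadjusted limma p under 0.05). The call of *Emx1* was lost without WT replicate 1, 2 or 3 (adjusted p = 0.166, 0.102 and 0.103) or *Rdh10* KO replicate 1 or 2 (adjusted p = 0.0969 and 0.115) or with the replicate number as a block (adjusted p = 0.0611), with 0.00754 to 0.166 over 19 alternatives. *Otx2* lost its call without WT replicate 1 or 2 (adjusted p = 0.0556 and 0.0548), with 3.03e-07 to 0.0829 over 19 alternatives. Surface ectoderm markers summed to 6666, 6659 and 6148 in WT and 7291, 6205 and 7229 in *Rdh10* KO, with 1 of 8 higher (*Cdh1*, log2 fold change 0.30, limma adjusted p = 0.0386) and 0 lower by limma (1 and 0 by edgeR's 2 tests and DESeq2, 2 and 0 at an unadjusted limma p under 0.05). *Krt18* had the highest mean count (1521, 1452 and 1345 in WT replicates 1 to 3 and 1569.5, 1454 and 1781 in *Rdh10* KO replicates 1 to 3). *Cdh1* lost its call without WT replicate 1, 2 or 3 (adjusted p = 0.144, 0.123 and 0.19) or *Rdh10* KO replicate 1 or 3 (adjusted p = 0.145 and 0.159), with median scaling (adjusted p = 0.0717) or with the replicate number as a block (adjusted p = 0.0859), with 0.018 to 0.197 over 19 alternatives. Yolk sac endoderm markers had few reads, their sums were 91.1, 112 and 101 in WT and 107, 112 and 124 in *Rdh10* KO, and 0 of 10 were called in either direction by limma, edgeR or DESeq2 or at an unadjusted limma p under 0.05. *Apob*, the gene with the highest mean count of the list, was counted at 26.6, 43.4 and 50.8 in WT replicates 1 to 3 and 30.1, 35.2 and 57.6 in *Rdh10* KO replicates 1 to 3. Heart markers were also low, their sums were 115, 105 and 79.0 in WT and 128, 161 and 280.0 in *Rdh10* KO, with 1 of 8 called higher and 0 lower by limma (1 and 1 by edgeR's quasi-likelihood test, 2 and 1 by its likelihood ratio test, 1 and 0 by DESeq2, 2 and 1 at an unadjusted limma p under 0.05). The gene called by limma, *Actc1*, was counted at 52.2, 66.8 and 35.7 in WT replicates 1 to 3 and 87.4, 121 and 248 in *Rdh10* KO replicates 1 to 3 (log2 fold change 1.46, limma adjusted p = 0.0067), and its call was lost without WT replicate 1, 2 or 3 (adjusted p = 0.132, 0.0814 and 0.125) or *Rdh10* KO replicate 2 or 3 (adjusted p = 0.0833 and 0.0913), with 1.33e-05 to 0.148 over 19 alternatives.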
